A study of Mus musculus with 9 samples.

Results

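The genes described here encode transcription factors of the STAT family and the SOCS proteins that feed back on them: the STAT genes *Stat2*, *Stat3*, *Stat4*, *Stat5a*, *Stat5b* and *Stat6*, and the feedback genes *Socs1*, *Socs3* and *Cish*. They were taken by symbol, 9 of the 30588 genes in the deposited table, and all 9 passed the filter on low counts. Dendritic cells (DCs) were compared by RNA-Seq between Δ*Gnas* mice (4 cultures, replicates 3, 4, 6 and 7) and wild-type (WT) mice (5 cultures, replicates 3 to 7). In Δ*Gnas* mice a floxed *Gnas*, the gene of the stimulatory G protein subunit Gα_s, is deleted by Cre expressed from the CD11c promoter, so that deletion is limited to cells that have turned that promoter on. Both genotypes are labelled C57BL/6J. Bone marrow was grown for 6 days in granulocyte-macrophage colony-stimulating factor (GM-CSF), the only agent that the labels name, and CD11c+ cells were then taken with magnetic beads, with no further treatment. By label, 2 Δ*Gnas* and 2 WT cultures came from male mice and 2 Δ*Gnas* and 3 WT cultures from female mice. The ages of the mice and any floxed or Cre allele in the WT mice are not given in the sources used here.

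STAT proteins lie latent in the cytoplasm until a cytokine receptor and its Janus kinase (JAK) phosphorylate them, after which they form dimers, enter the nucleus and bind DNA. Each receptor uses its own STATs: the IL-12 receptor uses STAT4, the IL-23 receptor mainly STAT3 and to a lesser degree STAT4, IL-4 and IL-13 receptors STAT6, GM-CSF and common gamma chain receptors STAT5A and STAT5B, IL-6, IL-10 and G-CSF receptors STAT3, and type I interferon receptors STAT2. SOCS proteins and CISH are made in response to STATs and shut off the same receptors and kinases. RNA levels of these genes do not report phosphorylation, which was not measured in the data used here.

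Of the 9 genes, *Stat4* and *Socs1* were lower in Δ*Gnas* DCs and no gene was higher. *Stat4* was 6.30-fold lower and *Socs1* 1.79-fold lower. The other 7 genes did not pass the test, and *Stat5b* and *Stat6* had the smallest differences. Over the 11862 genes tested, 9.56% passed (adjusted p under 0.05, edgeR's quasi-likelihood test with Benjamini-Hochberg adjustment over all genes tested), 4.15% as lower and 5.41% as higher. The TPM values (transcript levels per length, scaled to the same total in each library) of the genotypes did not overlap for these same 2 genes, against 10.6% of all genes tested. The median log2 fold change (Δ*Gnas* minus WT) of the 9 genes was -0.16, and that of all genes tested -0.0043. It lay below 0 for 5 of the 9 genes, against 50.6% of all genes.

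The libraries held 37861469 to 49072920 estimated counts in Δ*Gnas* DCs and 34252701 to 49427934 in WT DCs. *Gnas* was at 48.0 to 63.6 TPM in the 4 Δ*Gnas* libraries and at 404 to 532 TPM in the 5 WT libraries, so each library fitted its label. WT replicate 3 stood apart, with 1.39% of its TPM in mitochondrially encoded transcripts against 5.85 to 8.54% in the other 8 libraries, and results that rest on it are also given without it. *Itgax*, which encodes CD11c, was at 331 to 415 TPM in Δ*Gnas* DCs and 88.3 to 279 TPM in WT DCs. Of 13 DC markers 12 were tested, and 3 were higher (*Itgax*, *H2-Ab1* and *Sirpa*) and 3 lower (*Zbtb46* by a log2 fold change of -0.80, *Ccr7* by -1.43 and *Cd86* by -0.99). Their summed level was 20150 to 24343 TPM in Δ*Gnas* DCs and 14412 to 25789 TPM in WT DCs. Of 9 macrophage markers, 7 were lower in Δ*Gnas* DCs, against 4.15% of all genes tested. The summed level of the 9 was 1495 to 2468 TPM in Δ*Gnas* DCs against 3526 to 8196 TPM in WT DCs. In bulk RNA, fewer cells of a type and less RNA per cell cannot be told apart. The part of macrophage-like cells in the changes below was not tested.

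The upstream sequences of *Socs1*, *Stat4* and *Socs3* are shown because the first pair carries the changes and the last holds the motif that STAT dimers bind. Each is the stretch of 250 bases before a RefSeq transcription start (build GRCm38.p6), written in the direction of transcription. Capitals mark letters matching the interferon-stimulated response element (ISRE, searched as GAAA followed by any 2 bases and GAAA, bound by interferon-activated factors) or the gamma-activated sequence (GAS, TTCNNNGAA, bound by STAT dimers), searched on both strands.
Socs1 (chr16:10785537-10785786, minus strand): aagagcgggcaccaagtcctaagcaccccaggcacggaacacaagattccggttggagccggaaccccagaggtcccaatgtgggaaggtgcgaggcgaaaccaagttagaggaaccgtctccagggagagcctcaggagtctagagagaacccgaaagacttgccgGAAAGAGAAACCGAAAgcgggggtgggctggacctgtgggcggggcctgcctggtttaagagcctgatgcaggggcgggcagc
Stat4 upstream start (chr1:51986898-51987147, plus strand): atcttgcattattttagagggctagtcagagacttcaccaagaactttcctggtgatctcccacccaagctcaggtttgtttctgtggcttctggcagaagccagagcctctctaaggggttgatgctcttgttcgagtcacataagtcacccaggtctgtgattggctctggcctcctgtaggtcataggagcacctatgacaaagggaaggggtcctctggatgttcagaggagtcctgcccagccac
Stat4 downstream start (chr1:52007990-52008239, plus strand): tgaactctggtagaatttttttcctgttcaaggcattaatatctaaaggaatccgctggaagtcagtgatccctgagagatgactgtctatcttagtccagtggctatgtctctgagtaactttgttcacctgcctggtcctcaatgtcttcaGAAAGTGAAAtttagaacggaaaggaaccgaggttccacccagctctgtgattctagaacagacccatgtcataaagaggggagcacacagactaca
Socs3 (chr11:117969367-117969616, minus strand): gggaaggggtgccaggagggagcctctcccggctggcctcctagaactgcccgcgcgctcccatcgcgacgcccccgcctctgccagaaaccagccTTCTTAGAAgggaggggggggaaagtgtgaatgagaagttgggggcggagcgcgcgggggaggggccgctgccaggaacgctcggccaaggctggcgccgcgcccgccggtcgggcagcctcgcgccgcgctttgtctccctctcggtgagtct
*Socs1* held 2 ISRE matches that overlap each other, beginning 83 and 77 bases before the start. *Stat4* held 1 ISRE match, 97 bases before its downstream start, and none of the searched motifs before its upstream start. *Socs3* held 1 GAS match, 154 bases before the start. Of 32851 such windows in the RefSeq table, 2.98% held an ISRE match and 7.02% a GAS match. The cAMP response element (CRE, TGACGTCA), searched because *Gnas* acts through cAMP, was in 1.55% of all windows and in none of the windows of the 9 genes. Its shorter form TGACG, which is contained in the full element, was in 17.8% of all windows and in those of *Cish* (97 bases before the start) and *Stat6* (33 bases). *Stat2* held an ISRE match 222 bases before its start, and the windows of *Stat3*, *Stat5a* and *Stat5b* held no match. These matches are letters in a window, and binding was not measured.

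STAT4 carries the signal of IL-12, and *Stat4* showed the largest change among the 9 genes. *Stat4* was at 37.3, 7.06, 10.3 and 7.35 TPM in Δ*Gnas* replicates 3, 4, 6 and 7, against 152, 76.5, 114, 60.2 and 78.0 TPM in WT replicates 3 to 7. Every Δ*Gnas* library lay below every WT library, and Δ*Gnas* replicate 3 lay well above the other 3 of its genotype. The means were 15.5 ± 14.6 TPM (SD, n = 4) in Δ*Gnas* DCs and 96.2 ± 37.0 TPM (SD, n = 5) in WT DCs. The log2 fold change was -2.66 (SE 0.49, 95% interval -3.75 to -1.56, adjusted p = 0.0103 from edgeR). A two-sided exact permutation test of log2(TPM + 1) between the genotypes gave p = 0.0159, which is the smallest p it can give. *Stat4* passed in each of 21 alternative settings. Without Δ*Gnas* replicate 3 the log2 fold change was -3.49, and without WT replicate 3 it was -2.53.

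*Stat4* lies on chromosome 1 (51987148-52107189, plus strand, GRCm38, GENCODE). *Stat4* transcripts share 23.7% of their 31-base words with *Gm28177*, a noncoding transcript on the same strand that overlaps the gene and was not analysed here, so reads of that transcript could be counted in *Stat4*.

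The genes whose pattern over the 9 libraries was most like *Stat4* were *Pcgf5*, a Polycomb RING finger gene (Pearson r of log2 CPM, counts scaled to library size, 0.99), *Serpinb9*, an inhibitor of granzyme B (0.99), and *Arfrp1*, an ARF-related GTPase (0.98), of 8770 genes with a mean of 5 CPM or more. After subtraction of each genotype's mean, r was 0.95, 0.93 and 0.93. The libraries differ in genotype and depth, and the values are given as a description. *Serpinb9* was at 39.5 TPM in Δ*Gnas* replicate 3 and 9.81 to 16.05 TPM in the other Δ*Gnas* libraries, against 55.8 to 183 TPM in WT libraries, so it followed *Stat4* in the library that stood out.

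Δ*Gnas* replicate 3 also stood out for *Ccr7*, the chemokine receptor of mature, migrating DCs. *Ccr7* was at 763 TPM in this library and at 155, 348 and 195 TPM in Δ*Gnas* replicates 4, 6 and 7, against 661 to 1379 TPM in WT libraries, and was called lower (adjusted p = 0.04998 from edgeR). The level of *Ccr7* thus moved with that of *Stat4* within Δ*Gnas* DCs, and its part in the change of *Stat4* was not tested. T and NK cells also express *Stat4*. Of their defining markers, *Cd3e* reached at most 0.241 TPM and *Trac* at most 0.985 TPM in any library, and *Ncr1*, *Eomes*, *Gzma* and *Prf1* were each under 1 TPM. Other markers reached higher levels: *Cd3g* was at 0.317 to 6.82 TPM in Δ*Gnas* DCs against 0.206 to 0.820 TPM in WT DCs, *Cd4* at 1.52 to 2.73 TPM against 0.703 to 1.34 TPM, and *Cd3d* at 0.857 to 1.41 TPM against 0.324 to 1.14 TPM, which did not pass the test. *Cd8a* ran the other way, at 0.676 to 0.863 TPM in Δ*Gnas* DCs against 0.832 to 2.94 TPM in WT DCs. It did not pass the test (log2 fold change -1.41, adjusted p = 0.0725 from edgeR). *Trbc2*, *Klrb1c* and *Gzmb*, too low to be tested, reached 1.33, 2.44 and 1.698 TPM in Δ*Gnas* DCs against 0.0828, 0.693 and 0.425 TPM in WT DCs. The part of T and NK cells in the change of *Stat4* was not tested. The summed level of 9 T cell markers was 90.3 to 128 TPM in Δ*Gnas* DCs against 126.1 to 181 TPM in WT DCs, most of it *Il7r*, which was lower, while *Cd3g* and *Cd4* were higher among the 5 tested. That of 7 NK cell markers was 7.02 to 11.3 TPM against 5.13 to 25.0 TPM, and *Klrd1*, the highest of them, did not pass the test (3.54 to 10.3 TPM against 4.86 to 24.6 TPM).

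STAT3 acts downstream of IL-6, IL-10 and G-CSF. *Stat3* was at 79.7, 52.3, 67.6 and 50.1 TPM in Δ*Gnas* replicates 3, 4, 6 and 7, against 128, 104, 87.1, 85.3 and 52.0 TPM in WT replicates 3 to 7. Only WT replicate 7 lay within the range of the Δ*Gnas* libraries. The means were 62.4 ± 13.9 TPM (SD, n = 4) in Δ*Gnas* DCs and 91.2 ± 27.8 TPM (SD, n = 5) in WT DCs, and *Stat3* did not pass the test (log2 fold change -0.52, SE 0.17, 95% interval -0.90 to -0.14, adjusted p = 0.0916 from edgeR). The exact permutation test gave p = 0.0952. Without WT replicate 7 *Stat3* passed (-0.64, adjusted p = 0.0341), as it did in DESeq2 (-0.52, adjusted p = 0.0308). In the other 19 of 21 alternative settings *Stat3* did not pass. Without WT replicate 3, its highest library, the log2 fold change was -0.46 (adjusted p = 0.157 from edgeR). Its gene overlaps that of *Stat5a* by 72 bases on the opposite strand.

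STAT6 is the transducer of IL-4 and IL-13. *Stat6* was at 90.6, 66.7, 75.0 and 72.7 TPM in Δ*Gnas* replicates 3, 4, 6 and 7, against 92.2, 71.1, 76.8, 76.6 and 52.3 TPM in WT replicates 3 to 7. The Δ*Gnas* values lay inside the range of WT. Its 95% interval of -0.16 to 0.29 lay around a log2 difference of 0.06 (SE 0.10, adjusted p = 0.754 from edgeR).

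*Stat5a* and *Stat5b* encode closely related factors downstream of GM-CSF, the cytokine of these cultures, and lie next to each other on chromosome 11 in opposite directions (*Stat5a* at 100859351-100885169, *Stat5b* at 100780731-100850724). Of the 31-base words of their transcripts, *Stat5a* shared 11.5% with *Stat5b*, and *Stat5b* shared 15.1% with *Stat5a*, so the division of reads between them is uncertain. *Stat5a* was at 38.8, 18.4, 22.1 and 19.5 TPM in Δ*Gnas* replicates 3, 4, 6 and 7, against 28.1, 19.6, 24.3, 16.2 and 13.1 TPM in WT replicates 3 to 7. Δ*Gnas* replicate 3 held the highest value of all libraries and the others overlapped with WT. *Stat5a* did not pass the test, with a difference of 0.30 on the log2 scale (SE 0.20, 95% interval -0.16 to 0.75, adjusted p = 0.425 from edgeR).

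*Stat5b* was at 20.2, 14.3, 16.6 and 14.7 TPM in Δ*Gnas* replicates 3, 4, 6 and 7, against 21.5, 17.3, 15.2, 17.6 and 10.5 TPM in WT replicates 3 to 7. The means were the same to 3 digits, 16.4 ± 2.68 TPM (SD, n = 4) in Δ*Gnas* DCs and 16.4 ± 4.00 TPM (SD, n = 5) in WT DCs. On the log2 scale the difference was 0.02 (SE 0.12, adjusted p = 0.948), and its 95% interval of -0.26 to 0.29 was narrower than those of *Stat4*, *Stat3* and *Stat5a*. The ratio of *Stat5a* to *Stat5b* was 1.92 in Δ*Gnas* replicate 3 and 1.29 to 1.33 in the other Δ*Gnas* libraries, against 0.923 to 1.60 in WT libraries, so *Stat5a* was the higher of the pair in every library but WT replicate 6.

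STAT2 acts in the response to type I interferon. *Stat2* was at 22.3, 14.6, 14.5 and 23.1 TPM in Δ*Gnas* replicates 3, 4, 6 and 7, against 21.6, 15.8, 16.1, 14.8 and 12.2 TPM in WT replicates 3 to 7. The genotypes overlapped, and *Stat2* did not pass the test (log2 fold change 0.23, SE 0.15, 95% interval -0.11 to 0.57, adjusted p = 0.403 from edgeR). The highest *Stat2* was in Δ*Gnas* replicate 7.

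**Figure D1:**
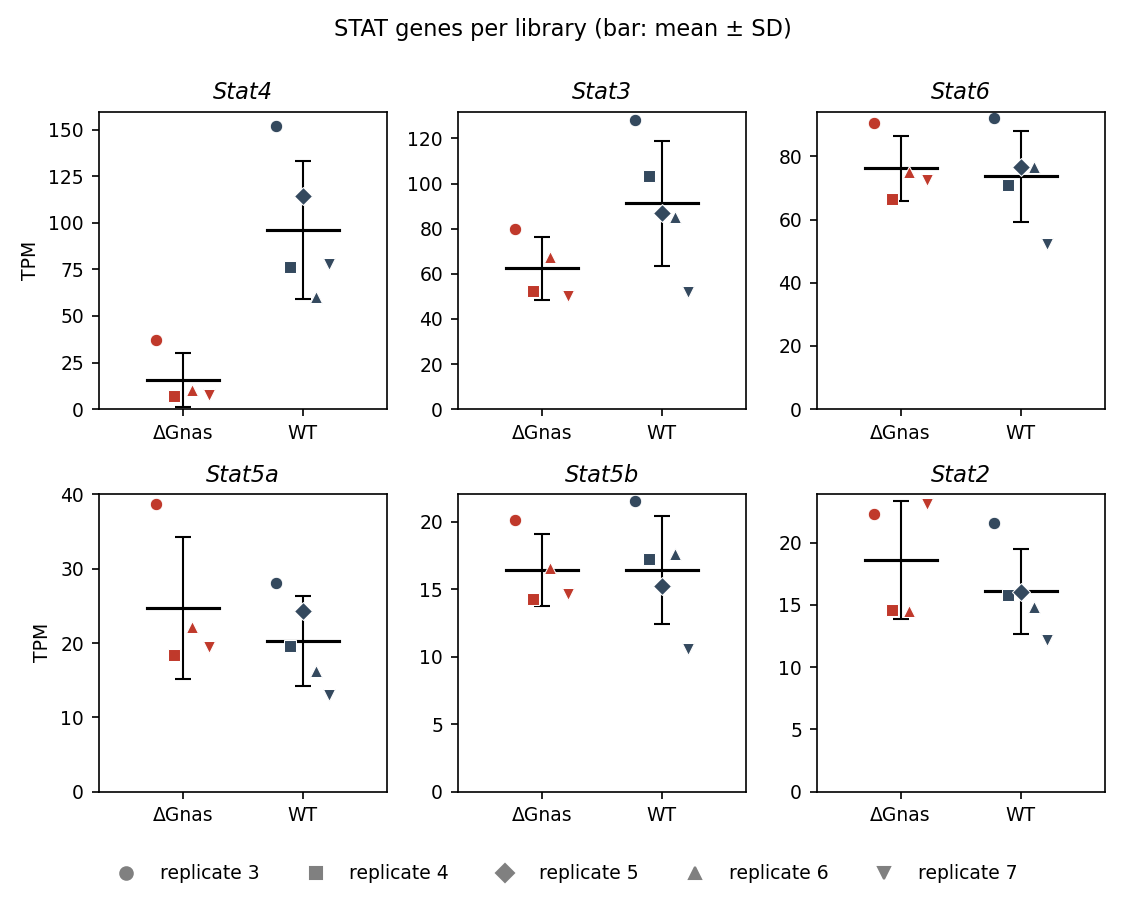
TPM (y axis, from 0) of the 6 STAT genes in each library of Δ*Gnas* DCs (red, n = 4) and WT DCs (dark, n = 5); symbols give the replicate number, horizontal lines the mean and bars the SD. *Stat4* separates the genotypes (7.06 to 37.3 TPM against 60.2 to 152 TPM), while the other 5 genes overlap.

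The order of the STAT levels differed between the genotypes mainly in the place of *Stat4*. In Δ*Gnas* DCs *Stat6* was first and *Stat3* second in all 4 libraries, although their ranges overlapped. *Stat5a*, *Stat2*, *Stat5b* and *Stat4* followed, each overlapping with the next, and the range of *Stat5a* lay below that of *Stat3*. In WT DCs *Stat4*, *Stat3* and *Stat6* formed the top group with overlapping ranges, and *Stat5a*, *Stat5b* and *Stat2* formed a lower group that also overlapped among themselves. *Stat3* lay above *Stat6* in 4 of the 5 WT libraries, the reverse of their order in Δ*Gnas* DCs. The mean of *Stat2* lay above that of *Stat5b* in Δ*Gnas* DCs and below it in WT DCs. *Stat4* made up 6.47% of the summed TPM of the 6 STAT genes in Δ*Gnas* DCs (3.92 to 12.9%) and 30.3% in WT DCs (22.2 to 35.8%). The sum was 173 to 289 TPM in Δ*Gnas* DCs and 218 to 443 TPM in WT DCs. Without *Stat4* it was 166 to 252 TPM in Δ*Gnas* DCs and 140 to 291 TPM in WT DCs, so the other 5 genes together covered a similar range in both genotypes. WT replicate 3 had the highest TPM among WT libraries for each of the 6 STAT genes, and WT replicate 7 the lowest for all of them but *Stat4*. The TMM (trimmed mean) scaling factors of these 2 libraries, 1.21 and 0.825, were the largest and the smallest, and they enter the fits but not the TPM.

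SOCS1 binds the JAKs themselves and is a main brake on interferon gamma and IL-4 signals. *Socs1* was the only feedback gene that changed. It was at 8.43, 5.11, 6.43 and 5.49 TPM in Δ*Gnas* replicates 3, 4, 6 and 7, against 18.1, 8.71, 10.2, 9.50 and 10.8 TPM in WT replicates 3 to 7. The highest Δ*Gnas* library lay just under the lowest WT library, and WT replicate 3 stood above the other WT libraries. The means were 6.37 ± 1.48 TPM (SD, n = 4) in Δ*Gnas* DCs and 11.5 ± 3.80 TPM (SD, n = 5) in WT DCs. The log2 fold change was -0.84 (SE 0.19, 95% interval -1.26 to -0.42, adjusted p = 0.0232 from edgeR), and the exact permutation test gave p = 0.0159, the smallest possible. Without WT replicate 3 the change was -0.72 (adjusted p = 0.0407). The direction held in each of 21 alternative settings, but the call was lost in 5: without Δ*Gnas* replicate 4 (adjusted p = 0.0781), replicate 6 (0.0611) or replicate 7 (0.0836), and in limma-trend with a pseudocount of 1 (0.0632) or 0.1 (0.0605) added to the TPM.

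*Socs1* lies on chromosome 16 (10782240-10785536, minus strand), and none of its 31-base words occurs in another annotated gene. The measured gene on one side, *Clec16a*, lies 37.4 kb away and had a log2 fold change of -0.15 (adjusted p = 0.682). On the other side *Gm11172*, 27.4 kb away, had a log2 fold change of 0.71 (adjusted p = 0.783) and was listed at 0 TPM in 1 library of each genotype. The genes most like *Socs1* over the 9 libraries were *Pnrc1*, a nuclear receptor coactivator (r = 0.98, and 0.96 within genotypes), the small GTPase *Rab13* (0.98 and 0.92) and *Ptov1* (0.97 and 0.90). *Rab13* (-0.80) and *Ptov1* (-0.67) were lower in Δ*Gnas* DCs, while *Pnrc1* (-0.35, adjusted p = 0.115) did not pass the test. *Pnrc1* was at 148 to 204 TPM in Δ*Gnas* DCs and 184 to 300 TPM in WT DCs, with its highest value in WT replicate 3, as for *Socs1*.

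SOCS3 binds the shared IL-6 receptor chain and restrains STAT3. *Socs3* was at 26.1, 45.5, 65.3 and 35.5 TPM in Δ*Gnas* replicates 3, 4, 6 and 7, against 30.7, 34.1, 54.2, 84.2 and 37.7 TPM in WT replicates 3 to 7. The values of both genotypes were interleaved, and replicate 6 was the highest of each. The log2 fold change was -0.16 (SE 0.36, adjusted p = 0.835 from edgeR), with a wide 95% interval of -0.97 to 0.65. *Socs3* was the gene whose levels ran most often against the others: after subtraction of the genotype means, its r with the 8 other genes lay below 0 for all of them, lowest with *Stat2* (-0.64) and *Stat4* (-0.63), a description over 9 libraries.

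CISH is induced by STAT5 and blocks its docking at receptors. *Cish* was at 26.9, 18.1, 9.34 and 6.42 TPM in Δ*Gnas* replicates 3, 4, 6 and 7, against 39.1, 10.6, 41.7, 13.04 and 9.28 TPM in WT replicates 3 to 7. It varied several-fold within each genotype, and the genotypes overlapped. The log2 fold change was -0.54 (SE 0.51, adjusted p = 0.579 from edgeR), and its 95% interval of -1.67 to 0.60 was the widest of the 9 genes. Of its 31-base words, 10.4% occur in other annotated genes, including the antisense gene *Gm17041*, which shares 6.54% and was not analysed here. Whether the counting used strand is not given in the sources used here, so reads of antisense genes may be included.

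**Figure D2:**
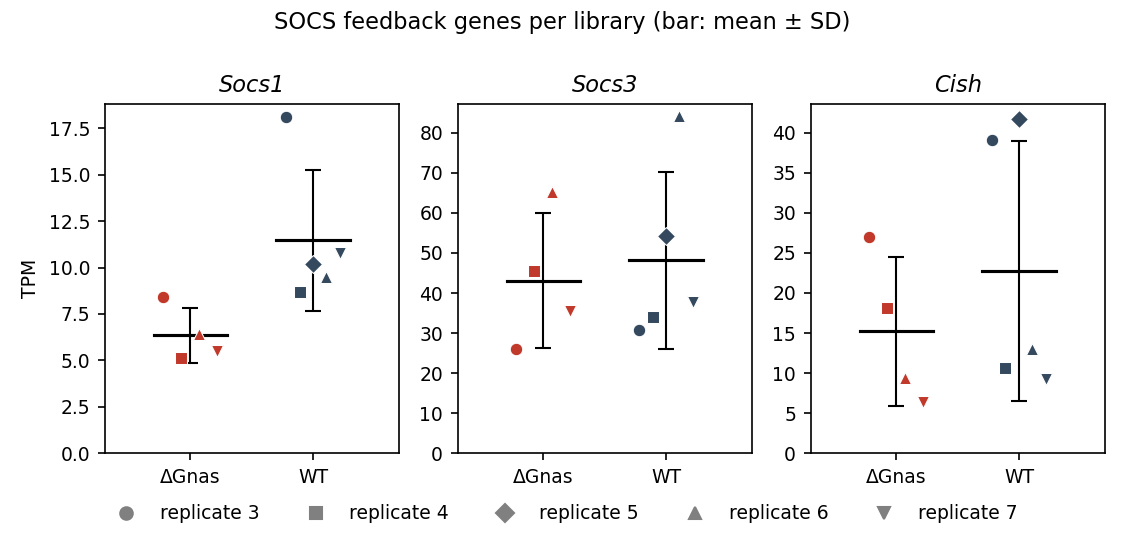
TPM (y axis, from 0) of *Socs1*, *Socs3* and *Cish* in each library of Δ*Gnas* DCs (red, n = 4) and WT DCs (dark, n = 5), with mean and SD. *Socs1* does not overlap (5.11 to 8.43 TPM against 8.71 to 18.1 TPM), and *Socs3* and *Cish* do.

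*Socs2*, the remaining STAT5-induced feedback gene, was named after its values were seen, because within genotypes it ran closest to *Stat4*. It was at 153, 31.5, 48.9 and 33.5 TPM in Δ*Gnas* replicates 3, 4, 6 and 7, against 255, 115, 190, 90.4 and 88.3 TPM in WT replicates 3 to 7. Δ*Gnas* replicate 3 lay inside the WT range and the other Δ*Gnas* libraries below it, and *Socs2* did not pass the test (log2 fold change -1.14 with an SE of 0.46, adjusted p = 0.162 from edgeR). After subtraction of the genotype means, r of log2 CPM over the 9 libraries was 0.97 for *Stat4* and *Socs2*, 0.97 for *Stat5a* and *Socs2*, 0.90 for *Stat4* and *Stat5a* and 0.70 for *Cish* and *Socs2*. *Stat3* and *Stat5b* had an r of 0.90 on the same scale. The first set includes the genes that were high in Δ*Gnas* replicate 3.

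**Figure D3:**
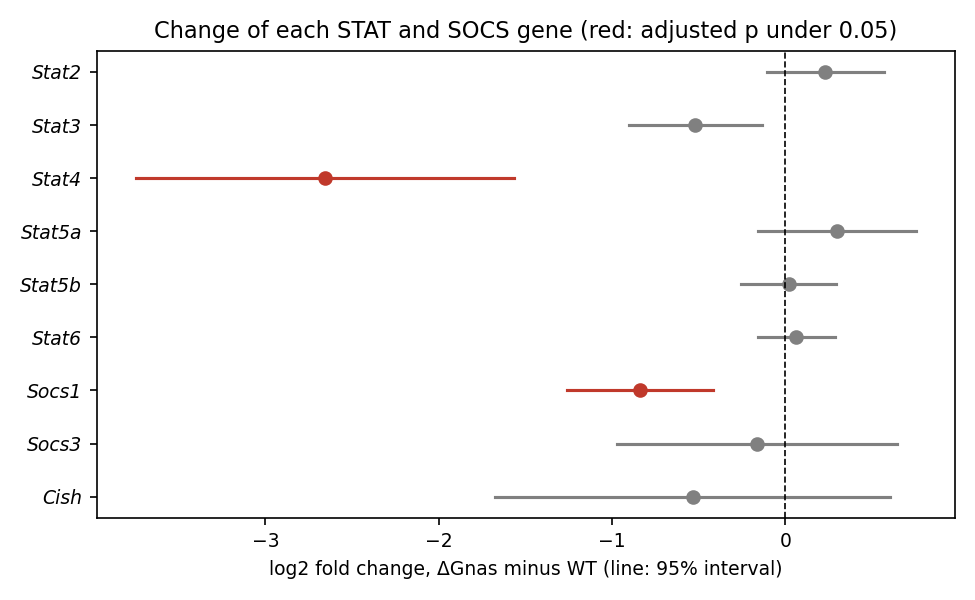
Log2 fold change (x axis, Δ*Gnas* minus WT) of each of the 9 genes from edgeR's quasi-likelihood fit on 4 Δ*Gnas* and 5 WT libraries; points are estimates, lines 95% intervals and red marks an adjusted p under 0.05. *Stat4* (-2.66) and *Socs1* (-0.84) are marked, and the interval of *Stat3* lies below 0 although its adjusted p is 0.0916.

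Around these 9 genes, the receptors, kinases, inhibitors and targets of the pathway were followed in 12 lists of 100 genes, of which 92 were tested. Of these, 6 were higher and 6 lower in Δ*Gnas* DCs, beside the 9.56% of all genes tested. Their median log2 fold change was -0.09. All 4 JAK genes had a log2 fold change below 0, against 50.6% of all genes tested, and none of the 4 passed the test. *Jak2*, the kinase of the GM-CSF receptor, was at -0.63 (adjusted p = 0.146 from edgeR) and *Jak1* at -0.03. The remaining SOCS genes (5 tested) and the GM-CSF, IL-3 and IL-5 receptor chains (4 of 5 tested) had no call in either direction. This depended on the setting: without Δ*Gnas* replicate 3, *Jak2* (-0.92, adjusted p = 0.0203) and *Socs2* (-1.88, adjusted p = 0.00703) were lower in edgeR, and DESeq2 called *Socs2* lower and 1 of the GM-CSF, IL-3 and IL-5 receptor chains higher. *Csf2rb*, the signalling chain for GM-CSF, was at 523 ± 84.6 TPM in Δ*Gnas* DCs (SD, n = 4) and 594 ± 123 TPM in WT DCs (SD, n = 5).

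Of the 6 interferon and IL-12 receptor genes tested, *Il12rb2* and *Il23r* were lower in Δ*Gnas* DCs, against 4.15% of all genes tested, and none was higher. *Il12rb2*, the IL-12 receptor chain that docks STAT4, was at 13.6, 7.87, 10.3 and 5.64 TPM in Δ*Gnas* replicates 3, 4, 6 and 7, against 40.2, 18.02, 49.98, 22.9 and 11.03 TPM in WT replicates 3 to 7. Only WT replicate 7 lay within the range of Δ*Gnas* libraries. The log2 fold change was -1.57 (SE 0.38, adjusted p = 0.0293 from edgeR), and the call was lost in 6 of 21 settings (-1.77 to -1.22), among them leaving out Δ*Gnas* replicate 4, 6 or 7 or WT replicate 3. *Il23r*, the IL-23 receptor chain, was at a low level in both genotypes, 0.390 ± 0.232 TPM in Δ*Gnas* DCs (SD, n = 4) and 1.77 ± 0.576 TPM in WT DCs (SD, n = 5), without overlap (log2 fold change -2.22, SE 0.47, adjusted p = 0.0180). It lost its call in 2 of 20 settings, without Δ*Gnas* replicate 7 and with replicate number as a block (-2.52 to -0.99 over the settings). *Il12rb1*, the chain that both receptors need, was too low to be tested, at 0.257 ± 0.0751 TPM in Δ*Gnas* DCs (n = 4) and 0.284 ± 0.122 TPM in WT DCs (n = 5). *Ifngr1*, at 123 to 162 TPM in Δ*Gnas* DCs and 172 to 263 TPM in WT DCs, did not overlap but missed the threshold (-0.56, adjusted p = 0.0635). Of 7 STAT4 target genes, 5 were tested and none passed, while *Hlx*, a homeobox factor (-0.93, adjusted p = 0.0594 from edgeR), was lower in 6 alternative settings, DESeq2 (-0.93) and leaving out Δ*Gnas* replicate 3 (-1.19) among them. *Ifng*, the best known STAT4 target in T cells, was too low to be tested in either genotype.

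Among 8 tested receptors for IL-4, IL-13 and common gamma chain cytokines, *Il4ra* and *Il7r* were lower in Δ*Gnas* DCs and none was higher. Of all genes tested, 4.15% were lower. *Il4ra*, the chain through which IL-4 and IL-13 activate STAT6, was at 47.3, 37.5, 46.1 and 34.9 TPM in Δ*Gnas* replicates 3, 4, 6 and 7, against 102, 85.2, 85.5, 71.1 and 55.3 TPM in WT replicates 3 to 7. The ranges did not overlap, and the log2 fold change was -0.93 (SE 0.12, adjusted p = 0.00238 from edgeR), called in each of 21 alternative settings. *Il7r*, the receptor chain for IL-7 and TSLP, was at 84.2 to 118 TPM in Δ*Gnas* DCs and 120.01 to 177 TPM in WT DCs, a log2 fold change of -0.60 (adjusted p = 0.0277) that lost its call in 5 of 21 settings, among them without Δ*Gnas* replicate 4 or 6 or WT replicate 4 or 5 (-0.71 to -0.51). *Crlf2*, the partner of *Il7r* for TSLP, did not pass (-0.28, adjusted p = 0.433). Of 7 tested receptors for IL-6, G-CSF and IL-10 type cytokines, *Il27ra*, the IL-27 receptor, was higher, at 4.03 ± 0.782 TPM in Δ*Gnas* DCs (n = 4) and 1.96 ± 0.275 TPM in WT DCs (n = 5), without overlap, and its log2 fold change was 1.05 (SE 0.20, adjusted p = 0.0127).

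**Figure D4:**
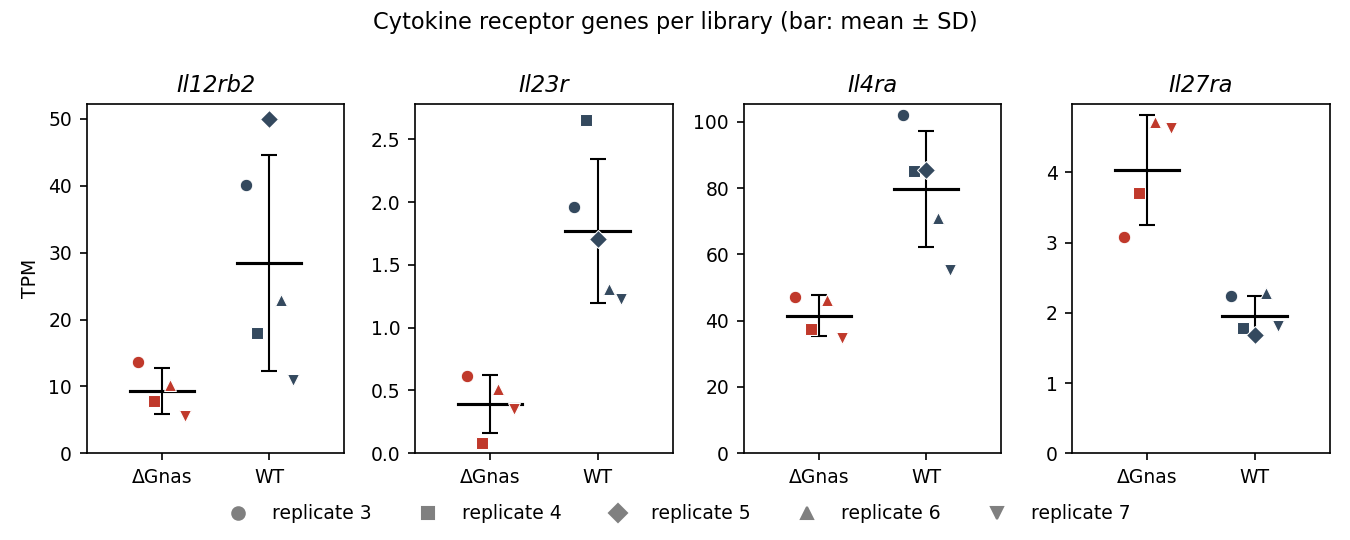
TPM (y axes, from 0, scaled per gene) of the receptor genes *Il12rb2*, *Il23r*, *Il4ra* and *Il27ra* in each library of Δ*Gnas* DCs (red, n = 4) and WT DCs (dark, n = 5), with mean and SD. *Il27ra* is higher in all Δ*Gnas* libraries, *Il23r* and *Il4ra* are lower in all of them, and *Il12rb2* overlaps in WT replicate 7 (11.03 TPM).

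Of 10 tested inhibitors outside the SOCS family, *Ptpn6*, which encodes the phosphatase SHP-1, was higher in Δ*Gnas* DCs, at 148 ± 15.3 TPM (SD, n = 4) against 107 ± 22.7 TPM in WT DCs (SD, n = 5). Its log2 fold change was 0.50 (SE 0.12, adjusted p = 0.0332 from edgeR), the genotypes overlapped, and 11 of 21 settings kept the call (0.41 to 0.60), which was lost without Δ*Gnas* replicate 4, 6 or 7 or WT replicate 4, 5 or 7. The PIAS genes and the phosphatase *Ptpn2* (-0.31, adjusted p = 0.0778) did not pass. This too depended on the setting. Without Δ*Gnas* replicate 3, *Pias3* (-0.84, adjusted p = 0.00974) and *Sh2b3* of the same list (-0.60, adjusted p = 0.0166) were lower in edgeR. DESeq2 called *Ptpn2* lower (adjusted p = 0.0293) and the phosphatase *Ptprc* higher (0.38, adjusted p = 0.0463).

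Of 8 tested STAT6 targets, 3 were higher in Δ*Gnas* DCs, against 5.41% of all genes tested, and none was lower. The log2 fold change lay above 0 for 4 of the 8 and below 0 for 4, with a median of -0.0096. *Ccl24*, an eotaxin, was at 17.9, 3.14, 3.13 and 4.62 TPM in Δ*Gnas* replicates 3, 4, 6 and 7, against 0.462 to 1.69 TPM in WT libraries, and passed in each of the 20 settings in which it was tested (log2 fold change 2.74, adjusted p = 0.0132 from edgeR). Every Δ*Gnas* library lay above every WT library. *Chil3*, a chitinase-like protein, was at 142 ± 79.1 TPM in Δ*Gnas* DCs (SD, n = 4) and 51.4 ± 21.3 TPM in WT DCs (SD, n = 5), with a log2 fold change of 1.499 (adjusted p = 0.0356). *Pparg*, a lipid-sensing nuclear receptor, was at 11.4 ± 2.54 TPM in Δ*Gnas* DCs (n = 4) and 6.81 ± 1.76 TPM in WT DCs (n = 5), with a log2 fold change of 0.75 (adjusted p = 0.0471). The call of *Chil3* held in 12 of 21 settings (1.001 to 1.77) and was lost without Δ*Gnas* replicate 4 or 6 or WT replicate 3, 4, 5 or 7. That of *Pparg* held in 11 (0.61 to 0.87) and was lost without Δ*Gnas* replicate 3, 6 or 7 or WT replicate 3, 4 or 7. The arginase *Arg1* was at 0.447 ± 0.439 TPM in Δ*Gnas* DCs (n = 4) and 6.39 ± 9.14 TPM in WT DCs (n = 5) and did not pass (adjusted p = 0.158 from edgeR). DESeq2 called *Arg1* lower (-3.99, adjusted p = 0.0454). *Ccl22*, a further target of the list, did not pass (-0.55, adjusted p = 0.457 from edgeR). Without Δ*Gnas* replicate 3 *Ccl22* was lower (-1.23, adjusted p = 0.00950 from edgeR). Markers of other cell types moved beside these genes. Of 6 eosinophil markers 5 were tested and 2 were higher, against 5.41% of all genes tested. *Ear1* was at 29.4 to 113 TPM in Δ*Gnas* DCs against 0.669 to 2.67 TPM in WT DCs, and *Siglecf* at 16.6 to 33.5 TPM against 3.94 to 8.10 TPM. The summed level of the list was 89.8 to 255 TPM in Δ*Gnas* DCs and 67.9 to 537 TPM in WT DCs. In WT DCs most of this sum was *Ear2* (47.8 to 520 TPM, against 9.86 to 168 TPM in Δ*Gnas* DCs), which did not pass (log2 fold change -1.15). *Prg2* (0.50) and *Ccr3* (1.35) did not pass either. Of 5 plasmacytoid DC markers *Siglech* was higher (9.77 to 20.6 TPM in Δ*Gnas* DCs against 3.10 to 8.46 TPM in WT DCs), and the list summed to 183 to 292 TPM in Δ*Gnas* DCs and 222 to 427 TPM in WT DCs. Most of this sum was *Bst2* (155 to 243 TPM in Δ*Gnas* DCs against 206 to 407 TPM in WT DCs), which did not pass (log2 fold change -0.59). Nor did *Ccr9* (1.18), *Ly6d* (1.33) and *Tcf4* (-0.11). The part of these cell types in the changes of the STAT6 targets was not tested.

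Of 10 STAT3 targets, 9 had a log2 fold change below 0, against 50.6% of all genes tested. Of the 10, 2 were lower, against 4.15% of all genes tested, and none was higher. *Junb* did not pass (-0.60, adjusted p = 0.0570 from edgeR) but was lower in 5 alternative settings, *Bcl6* in 2 and *Fos* in 1. *Vegfa*, the angiogenic growth factor, was at 70.9 to 125.6 TPM in Δ*Gnas* DCs and 201 to 360 TPM in WT DCs. The ranges did not overlap, and *Vegfa* passed in each of 21 settings (log2 fold change -1.51, adjusted p = 0.00238 from edgeR). *Hif1a*, the hypoxia factor, was at 41.4 to 56.2 TPM in Δ*Gnas* DCs and 69.7 to 156 TPM in WT DCs, with a log2 fold change of -1.01 (adjusted p = 0.0426). Its call held in 13 of 21 settings (-1.15 to -0.75) and was lost without Δ*Gnas* replicate 3, 4, 6 or 7 or WT replicate 4 or 7. Of 10 STAT5 targets, the cyclin *Ccnd1* was higher and none was lower, while 8 had a log2 fold change below 0, against 50.6% of all genes tested. *Ccnd1* was at 14.1 to 21.8 TPM in Δ*Gnas* DCs and 2.39 to 11.3 TPM in WT DCs (1.56, adjusted p = 0.0264). Its call held in 14 of 21 settings (1.35 to 1.97) and was lost without Δ*Gnas* replicate 4, 6 or 7 or WT replicate 3, 4 or 6. All of these genes have regulators other than STATs, and STAT activity was not measured.

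None of 16 tested interferon target genes passed. Of these, 13 had a log2 fold change above 0 and 3 below, against 50.6% of all genes tested below 0, and the list's median was 0.61. *Irf7*, the interferon-induced amplifier of the response, was at 10.7, 15.1, 11.6 and 48.3 TPM in Δ*Gnas* replicates 3, 4, 6 and 7, against 8.04 to 14.5 TPM in WT libraries. *Isg15*, a ubiquitin-like interferon-stimulated protein, was at 13.4, 16.3, 12.4 and 43.4 TPM in the same libraries, against 8.63 to 15.1 TPM in WT libraries. Both were high in Δ*Gnas* replicate 7, the library with the highest *Stat2*. In some settings members of the list passed, *Ifit2* as higher in 5 of them (1.504 in DESeq2, adjusted p = 0.00660) and *Mx1* as lower without Δ*Gnas* replicate 3 (-1.797, adjusted p = 0.00748 from edgeR). These 4 genes were named after their values were seen.

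**Figure D5:**
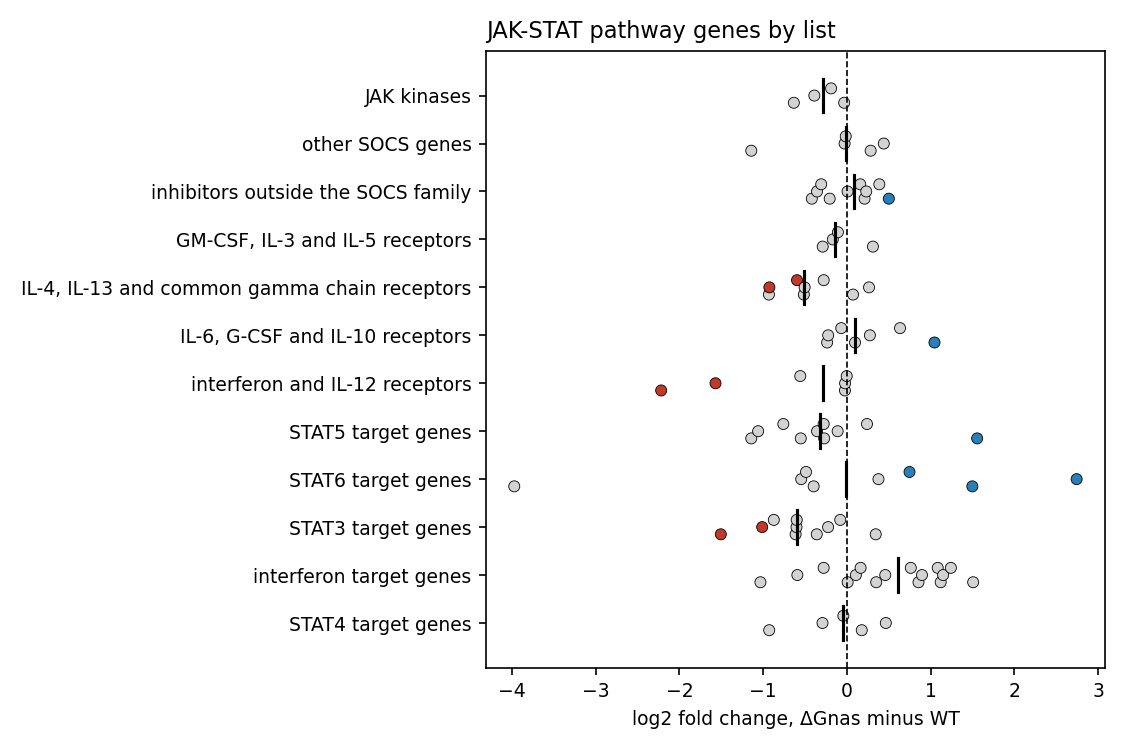
Log2 fold change (x axis, Δ*Gnas* minus WT) of the 92 tested genes in 12 lists of the JAK-STAT pathway (y axis); blue marks genes higher and red genes lower at an adjusted p under 0.05, grey the others, and black lines the list medians. *Socs2* is in 2 lists. No list holds both red and blue points. Red points are in the interferon and IL-12 receptors, the IL-4, IL-13 and common gamma chain receptors and the STAT3 targets. Blue points are in the STAT6 targets, the STAT5 targets, the inhibitors outside the SOCS family and the IL-6, G-CSF and IL-10 receptors.

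Whether the changes differed between the sexes was asked with an interaction of genotype and labelled sex. In edgeR 0 of the 11862 genes passed, and 172 had an unadjusted p under 0.05. None of the 9 genes was among these 172. The interaction of *Stat4* was 1.04 on the log2 scale (unadjusted p = 0.252 from edgeR) and that of *Cish* 1.47 (unadjusted p = 0.152). WT replicate 7, labelled female, had 21.3 TPM of the Y-linked *Ddx3y*, within reach of the 23.9 to 41.9 TPM of the libraries labelled male. Its Y-linked *Eif2s3y*, at 72.8 TPM, lay inside their range of 63.9 to 74.5 TPM. The other libraries labelled female had at most 0.0325 TPM of *Eif2s3y*. The label of WT replicate 7 is thus in doubt, and the interaction and the sex covariate used it as given. With 2 to 3 libraries per sex and genotype a difference between the sexes could have been missed.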

How the data were processed

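RNA-Seq of the 4 Δ*Gnas* and 5 WT cultures was analysed from the deposited table. The authors trimmed adapters, assigned reads to Ensembl transcripts (GRCm38) with Kallisto and summed them to genes with tximport. Per the file headers, the 30620 features each have a TPM value and an estimated count in every library. The estimated counts equal TPM times 1 factor per library. The 32 features that name no gene (0.0843 to 0.121% of counts) were left out.

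The estimated counts were rounded. A gene was tested where 3 or more libraries had over 1 CPM of it, with edgeR 4.0.16 (quasi-likelihood, TMM, no block) under R 4.3.3. On simulated data of this size (11862 genes) the test recovered 3 genes of 50 at a 1.5-fold change, 20 at 2-fold, 45 at 4-fold and 47 at 8-fold (50 genes each). Of its 121 calls 6 were false, and most changes of 2-fold or less were missed. The deposited data gave 1134 calls, so the adjustment for multiple tests was stricter in the simulation. Its recovery rates therefore do not give those of these data. Intervals are 95% intervals from the fit. Python 3.11.15, NumPy 2.4.6, pandas 2.3.3, SciPy 1.17.1 and Matplotlib 3.10.9 were used for the exact permutation tests, sequence searches and plots. The 9 genes and all lists were chosen with earlier results of these data known. All 9 genes are named, with up to 4 changed genes of each list by smallest p, the 3 genes most like each changed gene, the measured neighbours of *Socs1*, and defining markers. The neighbours of *Stat4* and 1 further gene of the lists are not reported here. Genes given as not passing the test, and markers beyond these, were picked with their values in view. *Adgre1* was found under its older symbol *Emr1*. Shared words were counted over GENCODE transcripts of GRCm38.

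The cultures are described as biological replicates, and p-values measure the spread between them. Alternatives were edgeR's exact test, DESeq2 1.42.0, limma 3.58.1 (voom, and trend on log2 TPM), upper-quartile factors, other filters, a robust fit, sex as a covariate, replicate number as a block, and leaving out each library. Leaving out replicate 3 of both genotypes was added after the data were seen.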

Additional observations from a re-analysis of the deposited data

Results flagged for a closer look

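Of 20 groups of library values checked for a library far from the others of its genotype (the 9 genes and *Gnas*, in each genotype), 3 had one. Chance alone gives this for about 1 in 20 groups. *Stat4* was at 37.3 TPM in Δ*Gnas* replicate 3, and the gap to the next Δ*Gnas* library made up 0.893 of the range of the genotype. *Socs1* was at 18.1 TPM in WT replicate 3, with a gap of 0.778 of the range. *Gnas* was at 532 TPM in the same WT library, with a gap of 0.784 of the range. WT replicate 3 is also the library with the low share of mitochondrially encoded transcripts, and whether this bears on its levels of *Socs1* and *Gnas* was not tested.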

How the results depend on the processing

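The call of *Stat4* held in all 21 alternative settings (log2 fold change -3.49 to -2.42), and that of *Socs1* was lost in the 5 settings given with its values. *Stat5b*, which did not pass the test, changed sign to -0.059 without Δ*Gnas* replicate 3, -0.0071 without WT replicate 5, -0.068 without WT replicate 7 (0.059 at most with 1 library left out) and -0.022 without replicate 3 of both genotypes. *Socs3* changed sign to 0.03 without Δ*Gnas* replicate 3 and 0.13 without WT replicate 6, and was lowest at -0.42 without Δ*Gnas* replicate 6. In the exact permutation test *Stat3* passed on log2 TMM-scaled CPM (-0.51, p = 0.0476). The number of changed genes was 1134, 1769 in DESeq2 and 519 to 1586 with each library left out (580, 611 and 519 without Δ*Gnas* replicates 4, 6 and 7, and 676 without WT replicate 4). Of the 9 genes 2 changed, 1 in limma-trend on log2(TPM + 1), 1 in limma-trend on log2(TPM + 0.1), 3 in DESeq2 and 1 to 3 with each library left out. Of the pathway genes 12 changed, 24 in DESeq2 and 6 to 20 with each library left out (20, 7, 6 and 7 without Δ*Gnas* replicates 3, 4, 6 and 7, and 7 without WT replicate 4). The interaction with sex gave 0 genes, and 0 to 14 with each library left out, of which 14 was without WT replicate 4. The cause of these shifts was not tested.

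The replicate numbers were not taken to pair the cultures in the main fit, since the labels do not say what a number marks. The deviations of same-numbered libraries from the genotype means had an r of 0.29, -0.04, 0.25 and 0.16 for numbers 3, 4, 6 and 7. Δ*Gnas* replicates 3, 6 and 7 each correlated best with the WT library of the same number (next best r 0.12, 0.0997 and 0.029). Δ*Gnas* replicate 4 correlated best with WT replicate 7 (0.22). Whether the numbers mark a pairing was not tested, so the fit with a block is given beside the main fit. With replicate number as a block, 1188 genes changed, 2 of the 9 genes and 15 of the pathway genes (4 higher, 11 lower). Among the lower genes was *Socs2*, while *Il23r*, *Il7r*, *Ptpn6* and *Chil3* were not called with the block. Without replicate 3 of both genotypes, an alternative chosen after seeing the data, 1375 genes, 2 of the 9 and 18 of the pathway genes changed. The TPM of each of the 9 genes was above 5 in every library. The number of libraries and the reads shared by *Stat5a* and *Stat5b* limit what can be said of small differences.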
